A study of Mus musculus with 8 samples.

Results

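miR-143 and miR-145 are a pair of microRNAs whose hairpins lie next to each other within the span of the long non-coding RNA gene Carmn, also listed as Mir143hg, in the RefSeq annotation of the mouse assembly GRCm38.p6. They are described here in whole liver of mice with diet-induced steatohepatitis, treated with metformin or not. The members are the probes with the array names mmu-miR-143 and mmu-miR-145, which read the abundant (guide) arms, and the probes for their star (passenger) arms, miR-143* and miR-145*. They make up 4 of the 1135 miRNA probes of the array, each spotted 1 time, and all 4 passed the filter on dim probes that left 1070 probes for testing. Male C57BL/6N mice, 8 weeks old when obtained, were kept for 15 weeks on the MCD diet, which lacks methionine and choline. The MCD + metformin group, with 4 livers, also received metformin, an oral biguanide, at 2.4 mg/day in the drinking water for 15 weeks, and the MCD group, also with 4 livers, received the diet alone. All the mice were therefore on the diet, which induces steatosis, inflammation and fibrosis of the liver, and normal-diet livers are not analysed here. Each liver was measured on 1 one-colour array, and the choice of the arrayed animals from the larger groups of the study is not described in the labels or methods.

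In the mouse, both miRNAs are processed from a common primary transcript that is activated by serum response factor and myocardin, and they are best known from vascular smooth muscle. There they help to keep the cells in the contractile state, miR-145 through repression of Klf4 and Klf5 and miR-143 through Elk1. In the liver they are known from cells of mesenchymal origin, that is, vascular smooth muscle, portal fibroblasts and stellate cells, the pericytes that lay down collagen in fibrosis. miR-143 has also been linked in obese mice to insulin signalling in the liver. Whole tissue was measured here, so that a change in the number of such cells and a change in the RNA per cell cannot be told apart.

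The 4 MCD + metformin arrays and the 4 MCD arrays differed in more than treatment. The median local background was 135 to 143 on the MCD + metformin arrays and 156 to 162 on the MCD arrays. The first row of spots lay at 35240 to 35270 in the vertical coordinate of the scanned image on the MCD + metformin arrays and at 3680 to 3690 on the MCD arrays, so that image position and treatment cannot be told apart. From 848 to 1018 miRNA probes per array exceeded the mean + 2 SD of the 1818 blank spots and were called detected, and 198 to 284 exceeded the stricter mean + 2 SD of the 24 negative control spots. No 2 arrays held identical values. Precision is limited by the number of arrays, and the smallest p that an exact permutation test of 4 against 4 can give is 0.0286.

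Both guide arms were clearly measured in all 8 livers. Scanner signals are median spot intensities before any subtraction. The signal of miR-143 was 1308, 905, 739 and 986 in MCD + metformin replicates 1 to 4, against 1175, 924, 1445 and 792 in MCD replicates 1 to 4. The groups overlapped over most of their range, with MCD replicate 3 the brightest and MCD + metformin replicate 3 the dimmest array. The mean was 984.5 ± 239 in MCD + metformin livers and 1084 ± 288 in MCD livers (SD, n = 4 each). On every array the signal exceeded the negative control threshold, by 2.65 to 4.84 times.

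The signal of miR-145 was 1512, 978, 776 and 1087 in MCD + metformin replicates 1 to 4, against 1245, 813, 1447 and 869 in MCD replicates 1 to 4. In these uncorrected signals the highest and the lowest value both came from MCD + metformin livers, so that the MCD range lay within the MCD + metformin range. This order did not hold after normalization, where the lowest value, 9.38, was that of MCD replicate 2. The mean was 1088 ± 310 in MCD + metformin livers and 1093.5 ± 304 in MCD livers (SD, n = 4 each). Here the signal was 2.73 to 5.02 times the negative control threshold.

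**Figure D1:**
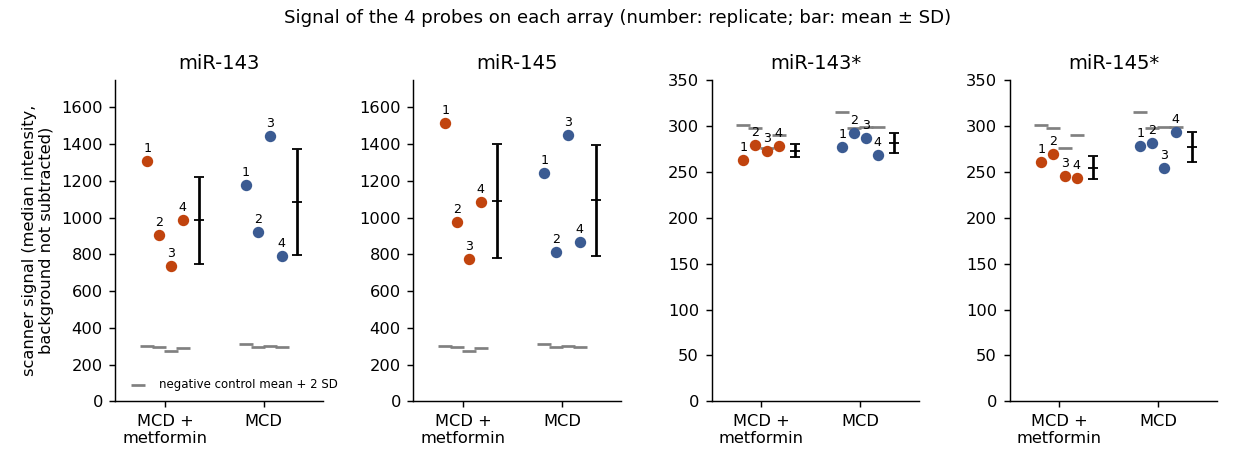
Scanner signal (y axis, median intensity without subtraction, separate scales for guide and star arms) of the 4 probes in MCD + metformin and MCD livers. Each point is 1 array with its replicate number, the black bars are the mean ± SD of 4 arrays and the grey dashes the mean + 2 SD of the negative control spots of each array. Both guide arms lie above the grey dashes and the star arms below them on all 8 arrays.

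The star arms were near background. The signal of miR-143* was 263, 279, 272 and 278 in MCD + metformin replicates 1 to 4, against 277, 292, 287 and 268 in MCD replicates 1 to 4. It exceeded the blank threshold on 8 arrays but the negative control threshold on 0. For miR-145* the signal was 261, 269, 245 and 243 in MCD + metformin replicates 1 to 4, against 278, 281, 254 and 293 in MCD replicates 1 to 4. This probe exceeded the blank threshold on 7 arrays, missing it on MCD + metformin replicate 4, and the negative control threshold on 0. The values of both star arms therefore lay within the range of spots that should not bind liver RNA, and the differences given for them below are differences between such values. Signals of both were lower on average in the MCD + metformin livers, at 273 ± 7.35 against 281 ± 10.7 in MCD livers for miR-143* and 254.5 ± 12.6 against 276.5 ± 16.3 for miR-145* (SD, n = 4 each). The local background was also lower on those arrays, and its part in these values was not tested.

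To compare the treatments, signals were background-corrected and put on the log2 scale, and the arrays were given the same median over the 451 probes detected on all 8 of them. Normalized log2 intensities of miR-143 were 10.13, 9.62, 9.36 and 9.76 in MCD + metformin replicates 1 to 4, against 9.93, 9.62, 10.27 and 9.36 in MCD replicates 1 to 4. Those of miR-145 were 10.36, 9.72, 9.44 and 9.91 in MCD + metformin replicates 1 to 4, against 10, 9.38, 10.26 and 9.51 in MCD replicates 1 to 4. Each group thus held bright and dim livers for both miRNAs.

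Neither guide arm differed detectably between the treatments. For miR-143 the log2 fold change of MCD + metformin against MCD was -0.08 (standard error 0.19), with an adjusted p of 0.966 from limma and a p of 0.714 from the exact permutation test, two-sided. The 95% interval of limma runs between 0.721 and 1.24 on the fold scale. For miR-145 the log2 fold change was 0.07 (standard error 0.20), with an adjusted p of 0.968 from limma and an exact permutation p of 0.829, and the interval lies between 0.780 and 1.41 on the fold scale. Because limma draws the spread of a probe towards that of all probes, and both guide arms varied more than most, the interval from each probe's own spread was wider. It was 0.615 to 1.46 for miR-143 and 0.649 to 1.70 for miR-145 on the fold scale, and these intervals hold changes in either direction. The value of miR-143 turned positive, at 0.0810, without MCD replicate 3, and that of miR-145 turned negative, at -0.0983, without MCD + metformin replicate 1.

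The star arms did not pass the test either. For miR-143* the log2 fold change was 0.09 (standard error 0.12, adjusted p = 0.865 from limma), with an exact permutation p of 0.343. For miR-145* it was -0.12 (standard error 0.13, adjusted p = 0.823 from limma), with an exact permutation p of 0.371. Of the 4 members, 0 passed an unadjusted p of 0.05 from limma, where 9.44% of the 1070 probes tested did (6.36% higher and 3.08% lower with metformin). The share was larger among brighter probes. Of the 221 above the negative controls on at least 4 arrays, which include both guide arms, 34 passed when fitted alone. At an adjusted p of 0.05, 0 members passed, where 0 of 1070 did. The smallest adjusted p over all probes was 0.195, and the methods' t-test called 83 probes without adjustment and 0 after it. The groups overlapped for all 4 members, whereas they did not overlap for 4.77% of the probes tested. Among the probes called without adjustment 68 were higher and 33 lower with metformin, a balance that was 43 and 50 with quantile normalization and 24 and 60 without scaling. The sign of the value of miR-145 changed with the scaling as well, being -0.10 with quantile normalization.

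Whether the 2 miRNAs changed unequally was asked within each array, where the scaling of the array cancels. The log2 value of miR-143 minus that of miR-145 was -0.23, -0.10, -0.08 and -0.16 in MCD + metformin replicates 1 to 4, against -0.08, 0.24, 0.01 and -0.15 in MCD replicates 1 to 4. The sign of this value in a liver has no meaning, since levels of different probes cannot be compared, and only its change between the groups is read. The difference between the groups was -0.15 (standard error 0.09, 95% interval -0.37 to 0.07), with an exact permutation p of 0.143, or 0.429 when adjusted over the 3 differences computed. Without MCD replicate 2 it was -0.07. For each guide arm minus its star arm the difference between the groups was -0.17 (standard error 0.29) for miR-143 and 0.19 (standard error 0.38) for miR-145, with exact permutation p values of 0.600 and 0.629. These last 2 rest on star arms that were not above the negative controls. They also moved with single arrays: that for miR-143 was -0.0165 without MCD + metformin replicate 3 and -0.36 without MCD + metformin replicate 1, and that for miR-145 was 0.0223 without MCD replicate 2 and 0.44 without MCD replicate 3.

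**Figure D2:**
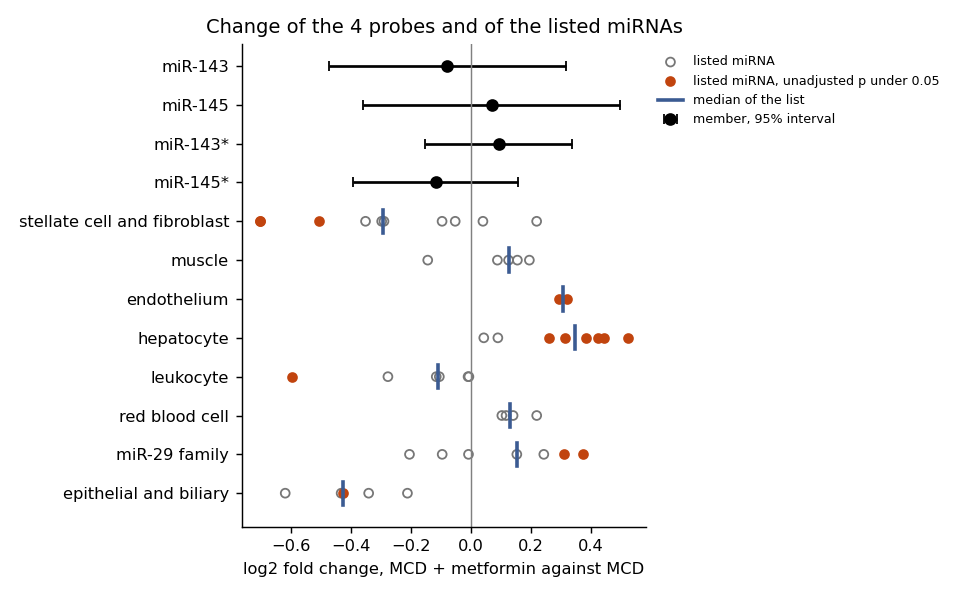
Log2 fold change (x axis) of MCD + metformin against MCD livers for the 4 probes, as black points with the 95% interval of limma, and for the tested miRNAs of 8 lists. Open points did not pass an unadjusted p of 0.05 from limma and filled points did, before adjustment over all probes, and the blue bars are the medians of the lists. All 4 intervals of the members include 0. miR-21 coincides at -0.70 with the probe that reads both miR-199a-3p and miR-199b.

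Both guide arms varied more between livers of the same group than most probes did, though less than some miRNAs of the cell-type lists described below. The highest normalized value of miR-143 was 1.88 times the lowest, and that of miR-145 was 1.97 times the lowest. Within a group the SD on the log2 scale was 0.36 for miR-143 and 0.40 for miR-145, pooled over both groups, against a median of 0.17 over all probes tested. This spread was larger than that of 96.6% of the probes tested for miR-143 and 97.9% for miR-145. Brighter probes had a larger median SD, 0.21, and of the 158 probes above the negative controls on all 8 arrays, 84.2% had a smaller spread than miR-143 and 88.6% a smaller one than miR-145. Of the 47 tested miRNAs of these lists, 8 had a larger SD than either guide arm, the largest being 0.92 for miR-200a, 0.78 for miR-200b and 0.64 for the probe that reads both miR-199a-3p and miR-199b, named after their values were seen. These spreads were computed with the median scaling only, and they depend on it. With quantile normalization the standard error of the log2 fold change from limma was 0.12 for miR-143 and 0.14 for miR-145. It was 0.19 and 0.20 with the median scaling and 0.22 and 0.23 without scaling. The shares of probes with a smaller spread were not computed under other scalings. The spread was present in both groups. On the log2 scale the SD of miR-143 was 0.32 in MCD + metformin livers and 0.39 in MCD livers, and that of miR-145 was 0.39 in MCD + metformin livers and 0.41 in MCD livers. With the median scaling, the SD between livers was thus larger than the difference between the treatments for both guide arms. This SD may hold technical as well as animal variation.

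The 2 guide arms varied together. After the mean of each group was removed, the deviations of miR-143 and miR-145 over the 8 arrays had a Pearson r of 0.95 and a Spearman rho of 0.90. The exact permutation test within the groups, two-sided, gave p = 0.00694 for r and p = 0.0139 for rho, and adjusted over the 6 pairs of probes the values were 0.0417 and 0.0833. Without MCD replicate 3 and MCD + metformin replicate 1, the arrays farthest from the median of miR-143, r was 0.86. Both miRNAs were high in MCD + metformin replicate 1 and MCD replicates 1 and 3, and low in MCD + metformin replicate 3 and MCD replicate 4. MCD replicate 2 was the liver that departed most, with the lowest miR-145 value of all 8 and a middle value of miR-143. With quantile normalization r was 0.78 and its adjusted p 0.219, and without background correction r was 0.96 and its adjusted p 0.0521 (exact permutation test in both cases), so the call is lost in these settings. A correlation within each group of 4 livers, and thus within each image position, is not given because 4 arrays are too few.

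**Figure D3:**
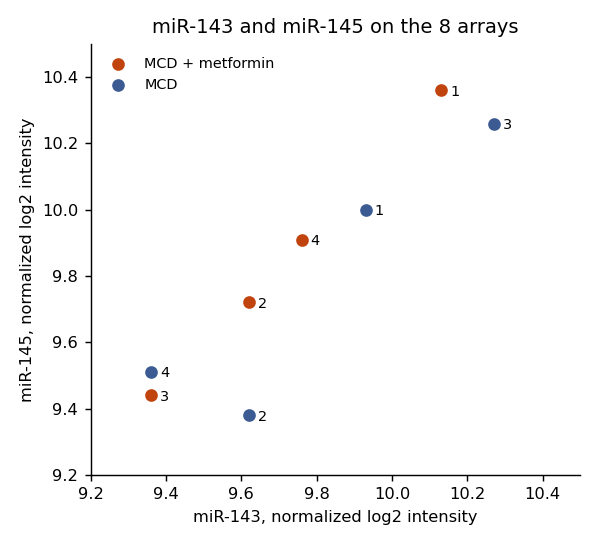
Normalized log2 intensity of miR-145 (y axis) against that of miR-143 (x axis) on the 8 arrays, with MCD + metformin livers in red and MCD livers in blue and the replicate number beside each point. Livers of both treatments are spread along the same rising band, and MCD replicate 2 lies below it.

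The star arms did not follow their guide arms. The r of the deviations was -0.17 between miR-143 and miR-143* (exact permutation p = 0.726) and -0.54 between miR-145 and miR-145* (exact permutation p = 0.231). Between the 2 star arms r was -0.09 (exact permutation p = 0.845). Of the 6 pairs, that of the guide arms was the only one with an adjusted p under 0.05. As the star arms lay below the negative controls, a shared pattern of the arms of a hairpin was not detectable here.

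Other probes had patterns close to those of the guide arms. Over the 448 other probes detected on all 8 arrays, the 5 with the highest Pearson r with miR-143, on normalized values of both groups together, were miR-16 (0.95), miR-191 (0.93), miR-24 (0.93), miR-15b (0.93) and let-7e (0.92). For miR-145 they were miR-27b (0.93), miR-107 (0.91), miR-92a (0.90), miR-16 (0.90) and miR-720 (0.88). These values are descriptions over 8 arrays that share the same scaling, and no test was made. The r between miR-143 and miR-145 in the same measure was 0.93, which placed miR-145 in position 5 among the probes most like miR-143 and miR-143 in position 2 among those most like miR-145. All 9 probes named here were above the negative controls on all 8 arrays, and none passed an unadjusted p of 0.05 from limma. Their log2 fold changes lay between -0.21 for miR-24 and 0.17 for miR-107.

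The mature sequences for 8 of these 9 probes, as held by RefSeq for GRCm38.p6, are given to show which of them share a seed (bases 2 to 8, in capitals), the part that pairs with target mRNAs. No mature miRNA sequence was available for the probe named miR-720.
miR-16: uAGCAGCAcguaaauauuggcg
miR-15b: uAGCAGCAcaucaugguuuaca
miR-107: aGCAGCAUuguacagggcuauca
miR-191: cAACGGAAucccaaaagcagcug
miR-24: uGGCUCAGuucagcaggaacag
let-7e: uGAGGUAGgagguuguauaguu
miR-27b: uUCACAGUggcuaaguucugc
miR-92a: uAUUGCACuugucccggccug

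miR-16 and miR-15b have the same seed and are members of a family of cell cycle repressors, and the other 6 each have a seed of their own, which makes 7 seeds in all. miR-15b at chr3:69009775-69009796 and a copy of miR-16 at chr3:69009918-69009939, both on the plus strand, are neighbours, as are miR-27b at chr13:63300760-63300780 and a copy of miR-24 at chr13:63301251-63301272, also on the plus strand. miR-16 and miR-24 have 2 genomic copies each, which an array of mature miRNAs cannot tell apart. The remaining positions are chr9:108568325-108568347 on the plus strand for miR-191, chr17:17830366-17830387 on the plus strand for let-7e and chr19:34820700-34820722 on the minus strand for miR-107. miR-92a has copies at chr14:115044476-115044496 on the plus strand and chrX:52741854-52741874 on the minus strand.

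Likeness to the guide arms went with brightness. Among the 156 other probes above the negative controls on all 8 arrays, the median r with miR-143 was 0.44 and that with miR-145 was 0.54. Among the 292 dimmer probes detected on all arrays it was -0.10 with miR-143 and -0.04 with miR-145. An r above 0.8 with miR-143 was found for 20 of the 156 bright probes and 3 of the 292 dim ones, and with miR-145 for 21 of the bright and 1 of the dim probes. The close likeness of miR-143 and miR-145 therefore stands among a broader set of bright probes that varied together between these livers.

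**Figure D4:**
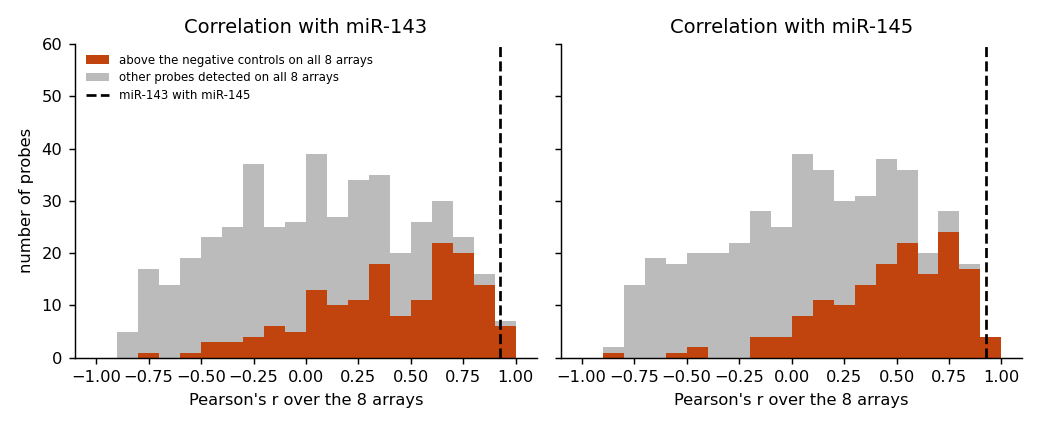
Number of probes (y axis) by Pearson's r over the 8 arrays (x axis) with miR-143 on the left and miR-145 on the right, for the 448 other probes detected on all arrays. Red bars are the 156 probes above the negative controls on all arrays, stacked on them in grey are the 292 others, and the dashed line is the r of 0.93 between miR-143 and miR-145. The bright probes lie mostly to the right of 0.

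The label of a mesenchymal cluster was set against lists of miRNAs of other cells on the same arrays, by the members that passed a p of 0.05 from limma before adjustment. Of 10 miRNAs on the list of activated stellate cells and fibroblasts, 6 were above the negative controls on all arrays, and 0 passed as higher and 3 as lower with metformin, where 6.36% of all probes tested passed as higher and 3.08% as lower. Their log2 fold changes had a median of -0.29, against 0.03 over all probes tested and 0.13 over the 158 probes above the negative controls on all arrays, and the median stayed negative under each of the 3 other scalings. The lower ones were miR-21, which is raised in many fibrotic tissues, at -0.70 (standard error 0.17), the probe that reads both miR-199a-3p and miR-199b at -0.70 (standard error 0.30), and miR-199b* at -0.51 (standard error 0.24). None of them passed adjustment, with adjusted p values from limma of 0.195, 0.453 and 0.523. The guide arms of miR-143 and miR-145 were at -0.08 and 0.07. These 3 were named because they passed, so that they lie farther from 0 by that choice. Others of the list were close to 0, among them miR-31 at -0.10, miR-222 at -0.05 and miR-21* at 0.04, named after their values were seen. Of the 10, 8 were negative and 2 positive, and a difference between the guide arms and the list was not tested.

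The miRNAs of the muscle list, which are best known from heart and skeletal muscle, were at or near background in these livers. Of the 9 listed, which include miR-133a and the muscle miR-206, 8 had a probe of that name, 5 were tested and 0 were above the negative controls on all arrays. Signals of miR-133a were 248 to 291 in MCD + metformin livers and 277 to 300 in MCD livers, above the negative controls on 2 arrays. The median log2 fold change of the tested ones was 0.12, and 0 passed an unadjusted p of 0.05 from limma. This list does not show how much smooth muscle the livers held. The array alone does not show which liver cells the signals of miR-143 and miR-145 came from.

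In the lists of other liver cells some miRNAs passed before adjustment, in both directions, and 0 passed after it, where 6.36% of all probes tested passed as higher and 3.08% as lower before adjustment. Both arms of the endothelial miR-126 passed as higher, with a median log2 fold change of 0.31, and 6 of the 8 hepatocyte probes did, with a median of 0.35, against 0.13 over the probes above the negative controls on all arrays. With quantile normalization 0 of both lists passed, the medians being 0.16 for the endothelial and 0.13 for the hepatocyte list, and without scaling 0 of the endothelial and 4 of the hepatocyte probes passed. In the miR-29 family, which represses collagen genes, 2 of 7 passed as higher and 0 as lower (median 0.15), against 0 higher and 1 lower without scaling. Of the 6 leukocyte miRNAs 1 passed as lower, miR-223 at -0.60 (standard error 0.22, adjusted p = 0.391 from limma). All 6 were negative, with a median of -0.11. Of the 5 epithelial and biliary miRNAs 1 passed as lower, miR-141 at -0.43 (standard error 0.17, adjusted p = 0.425 from limma). All 5 were negative, with a median of -0.43, farther below 0 than the -0.29 of the stellate cell and fibroblast list. Only 2 of these 5 were above the negative controls on all arrays. Both medians stayed negative under the other scalings, the epithelial one at -0.50 to -0.38. For the 4 red blood cell miRNAs 0 passed (median 0.13). The summed signal of the hepatocyte list was 30270 to 40235 in MCD + metformin livers and 25592 to 29243 in MCD livers, and its part in the values of miR-143 and miR-145 was not tested.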

How the data were processed

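Liver RNA of 8 mice was labelled and hybridised to the mouse miRNA Oligo chip, and the authors read the spots with the 3D-Gene extraction software. The deposited scanner values hold linear intensity, a median per spot and one for its local background, neither subtracted nor normalized. The authors' deposited table of processed intensity was used as an alternative. On each array it is a straight line of the signal, its median is 44.5 to 45, and it leaves dim probes empty, among them miR-145* on 1 array. Its scale is linear and it was not centred per probe. The normalization to 28S RNA and the baseline correction named in the methods were not repeated here.

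Groups and replicate numbers came from the sample labels. With R 4.3.3 and limma 3.58.1, background was corrected with normexp (offset 50, which understates changes of dim probes), control and blank spots were then left out, and each array was shifted on the log2 scale by its median over 451 probes. The 1070 probes that were detected on 4 or more arrays entered an unpaired lmFit and eBayes (two-sided), and p-values were adjusted after Benjamini-Hochberg over them. Exact permutation tests ran over every assignment of 4 against 4, or all 576 permutations within the groups for correlations. Replicates are separate livers as far as the sources tell, and otherwise p-values measure only the spread between these samples.

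The members and the 8 lists of miRNAs (stellate cell and fibroblast, muscle, endothelium, hepatocyte, leukocyte, red blood cell, miR-29 family, epithelial and biliary) were chosen with earlier results of these data known. The probes most like a guide arm were the 5 with the highest r among those detected on all arrays. Up to 3 members of a list with the smallest p were named where a result turned on them. Of the listed names, 1, miR-1, had no probe. The scalings were applied to the lists after seeing the data. The functions were tested on simulated data. Alternatives changed the background correction, the scaling, the filter, the values, the test, the pairing and the arrays used.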

Additional observations from a re-analysis of the deposited data

How the results depend on the processing

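No alternative brought any of the 4 members past an adjusted p of 0.05 from limma or the methods' t-test, and the smallest unadjusted p over all of them was 0.0908, for miR-143 with quantile normalization. The signs of these small values were not stable. The log2 fold change of miR-143 was -0.23 to -0.05 over the other settings and -0.24 to 0.08 when 1 array was left out, turning positive without MCD + metformin replicate 3 (0.03) and without MCD replicate 3 (0.0810). That of miR-145 was -0.0758 with plain subtraction, -0.10 with quantile normalization, -0.00088 without scaling and -0.0037 in the deposited table, and -0.10 to 0.23 when 1 array was left out, turning negative without MCD + metformin replicate 1 (-0.10) and without MCD replicates 2 (-0.07) and 4 (-0.04). That of miR-143* was -0.0029 without background correction and -0.0013 in the deposited table, and 0.02 to 0.14 when 1 array was left out. miR-145* stayed negative in all settings that tested it, at -0.23 with offset 0, -0.32 in the deposited table and -0.21 to -0.04 when 1 array was left out. The filters on all 8 arrays and on the negative controls leave out miR-145*, and the filter on the negative controls also leaves out miR-143*, so that they have no value there.

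The difference in change between miR-143 and miR-145 kept its sign, from -0.20 to -0.07 when 1 array was left out. That between miR-143 and miR-143* was -0.35 with plain subtraction, -0.32 with quantile normalization and -0.36 to -0.0165 when 1 array was left out. That between miR-145 and miR-145* was -0.0028 with plain subtraction, 0.33 with offset 0, 0.0448 with quantile normalization and 0.0223 to 0.44 when 1 array was left out. The correlation of the guide arms was 0.96 without background correction and 0.78 with quantile normalization, where it no longer passed. The r of miR-143 with miR-143* became 0.24 with quantile normalization, 0.0607 with the median of all probes and 0.28 without scaling, that of miR-143* with miR-145 became 0.0380 without scaling, and that of the star arms 0.15 without background correction. The count of probes past the unadjusted threshold was 101 of 1070. It was 56 with only the 451 probes detected on all arrays and 34 with only the 221 above the negative controls on at least 4. These counts were lower since fewer were tested, but the share called was larger with both filters. When 1 array was left out the count was 81 to 100. Without MCD replicate 4, 9 probes passed adjustment, none of them a member. The cause of the other changes was not tested.

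Equal replicate numbers gave no sign of pairing between the livers. The correlation of their deviations was -0.44 to -0.01, and 0 of 4 correlated best with their own number, though 4 pairs are too few to exclude a pairing. With the replicate number as a block the fold changes of the members are the same by construction, the adjusted p from limma was 0.966 for both miR-143 and miR-145, and 87 probes passed without adjustment.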

Other observations

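The pattern of miR-143 over the 8 livers was closer to that of some cell-type lists than of others. These are medians of Pearson's r over normalized values of all 8 arrays, given as a description without a test and for probes above the negative controls on all arrays. With miR-143 the median was 0.74 for the 6 stellate cell and fibroblast miRNAs, 0.79 for the 2 epithelial miRNAs miR-200a and miR-200b, 0.52 for the 4 leukocyte miRNAs, 0.29 for the 3 of the miR-29 family and also 0.29 for both arms of miR-126, against 0.02 for the 6 hepatocyte miRNAs and 0.44 over all bright probes. With miR-145 it was 0.60, 0.65, 0.39, 0.39 and 0.51 in the same order, against 0.22 for hepatocytes and 0.54 over all bright probes. The 6 stellate cell and fibroblast miRNAs were not alike. They include the miR-199 probes, at 0.80 to 0.84 with miR-143, and miR-221, at 0.09 with miR-143 and 0.06 with miR-145. These were singled out after their values were seen. Over all 10 of that list, dim ones included, the median was 0.63 with miR-143 and 0.43 with miR-145. The next 4 miRNAs were also chosen after their values were seen. miR-214, above the negative controls on 5 arrays and not among those 6, had an r of 0.85 with miR-143 and 0.64 with miR-145. Of the dim star arms on that list, miR-214* had 0.35 and 0.08 and miR-21* had 0.03 and -0.02, in the same order. miR-200a had an r of 0.84 with miR-143 and 0.71 with miR-145. The values share the scaling of the arrays. The group means were not removed here, so that shifts between the treatments enter these r. Such shifts differed between lists, with a median log2 fold change of 0.35 for hepatocyte, -0.29 for stellate cell and fibroblast and -0.43 for epithelial miRNAs. Their part in the r values was not tested.

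In the deposited table of processed intensities, miR-143 was 535.61 to 933.88 in MCD + metformin livers and 585.31 to 1178.51 in MCD livers, and miR-145 was 573.58 to 1108.74 in MCD + metformin livers and 561.82 to 1180.44 in MCD livers, so that the groups overlapped there too. miR-143* was listed at 38.1 to 60.2 in MCD + metformin livers and 36.6 to 63.2 in MCD livers.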
